A study of Mus with 12 samples.

Results

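The unfolded protein response and the integrated stress response were described through 33 genes, selected by symbol from the 27294 genes in the deposited table: stress sensors, the factors and targets downstream of ATF4, chaperones of the endoplasmic reticulum (ER), and genes of ER-associated degradation. All 33 were found once each, and all 33 were among the 17291 genes that passed the filter on low counts. The labels describe the cells as mouse primary peritoneal macrophages, and RNA was sequenced in 4 groups of n = 3 libraries: wild-type (WT) untreated, WT with oxidised low-density lipoprotein (oxLDL), knockout (KO) untreated and KO with oxLDL. For the genotype the labels say KO, with no allele, promoter or Cre line, while the series title names the kinase WEE1. Neither the strain and age of the mice nor the dose and time of oxLDL is given. The titles of the treated libraries say LDL, whereas the treatment label says oxLDL. Nothing in the labels says that replicates came from separate animals, so p-values measure the spread between these libraries, which may be technical.

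Secreted and membrane proteins fold in the ER. When unfolded proteins build up there, 3 sensors respond: IRE1α (gene Ern1) splices the Xbp1 messenger RNA, ATF6 is cut to release a transcription factor, and PERK (gene Eif2ak3) phosphorylates the translation factor eIF2α. Amino acid shortage acts on the same factor through the kinase GCN2 (gene Eif2ak4). Phosphorylated eIF2α lowers protein synthesis in general but favours translation of ATF4, which switches on genes of amino acid supply, and the phosphatase partners encoded by Ppp1r15a and Ppp1r15b reverse the phosphorylation. In macrophages these pathways are known to be engaged by lipid loading and by inflammatory signals. Gene-level RNA counts show neither Xbp1 splicing, nor the cutting of ATF6, nor phosphorylation, nor translation of ATF4, so all values below are RNA levels.

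Summed gene counts ran from 53588814 to 76809931 per library. Wee1 was at 2.8 to 3.25 FPKM in untreated WT, 1.44 to 1.78 in WT with oxLDL, 1.22 to 1.63 in untreated KO and 1.25 to 1.6 in KO with oxLDL, so it was not absent from any KO library. FPKM are fragment counts scaled to gene length and library size, as deposited by the authors. Macrophage markers were abundant, with 8 listed genes summing to 21200 to 21500 FPKM in untreated WT, 14700 to 15700 in WT with oxLDL, 11100 to 11800 in untreated KO and 10700 to 11300 in KO with oxLDL. Of these 8, 7 were lower and 1 higher in untreated KO than in untreated WT. Lyz2 made up most of each of these sums, at 18200 to 18700 FPKM in untreated WT and 12100 to 12900 in WT with oxLDL. Markers of large peritoneal macrophages were scarce, with Gata6 no higher than 0.278 FPKM in any library and the sum of 6 genes no higher than 5.32 FPKM. Of those 6, 2 were lower and 1 higher in untreated KO. The 8 plasma and B cell markers, of interest because plasma cells are rich in Xbp1, summed to 31.4 to 32.6 FPKM in untreated WT, 23.7 to 24.6 in WT with oxLDL, 42 to 46.9 in untreated KO and 40.8 to 46.4 in KO with oxLDL. Nearly all of that was Sdc1, while Mzb1 stayed at or under 0.572 FPKM and Jchain at or under 1.37. The summed markers of T cells, mast cells, neutrophils, dendritic cells, and mesothelial cells with fibroblasts reached at most 2.79, 5.29, 17.9, 1.47 and 13 FPKM in any library. In untreated KO against WT, 4 of 5 tested T cell, 4 of 4 mast cell, 3 of 3 neutrophil, 0 of 3 dendritic cell and 3 of 7 mesothelial and fibroblast markers were lower, and of the 8 plasma and B cell markers 1 was higher and 1 lower. Over all genes tested 14.8% were higher there and 16.2% lower. Some of these markers were near the floor: in untreated WT Cd3e, Cd3g and Camp reached at most 0.074, 0.127 and 0.423 FPKM. With oxLDL in both genotypes, 7 of the 8 macrophage, 4 of 5 T cell, 3 of 4 mast cell, 2 of 3 neutrophil, 1 of 3 dendritic cell, 4 of 7 mesothelial and fibroblast, 2 of 6 large peritoneal macrophage and 3 of 8 plasma and B cell markers were lower in KO. In that comparison 1 macrophage, 1 neutrophil and 2 plasma and B cell markers were higher. Over all genes tested 30.6% were higher there and 27.4% lower. With oxLDL in WT 5 of the 8 macrophage markers were higher and 3 lower, beside 23.9% and 27.2% of all genes tested. With counts scaled by library totals alone, 2 of the 8 macrophage markers were higher and 5 lower, beside 2222 and 8322 of all 17291 genes tested. Mitochondrial genes took 1.86 to 1.92% of counts in the treated WT libraries, 2.12 to 2.53% in those left untreated, and 2.46 to 3% in KO libraries. The part of these shifts in the results below was not tested. In such bulk libraries, fewer cells of a type and less RNA per cell cannot be told apart.

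Most of these stress genes responded to oxLDL in WT macrophages, with rises and falls that differed by branch. The genes of 4 of the 5 sensors and sensor effectors fell, 4 of the 6 stress response factors and their feedback genes rose, 3 of the 4 ATF4 metabolic targets rose, and 7 of the 13 ER folding genes fell. Xbp1 is the effector among those 5, which are called sensor genes below for short. In KO libraries none of the 33 passed the test for oxLDL. In edgeR's quasi-likelihood test, with p-values adjusted by Benjamini-Hochberg over all genes tested and calls made under 0.05, 12 of the 33 rose and 14 fell with oxLDL in WT. That is 78.8% of the members, against 51.2% of all genes tested, of which 23.9% rose and 27.2% fell. Changes of at least 2-fold were called for 5 members, against 20.3% of all genes tested. The members' median log2 change was 0.10, beside -0.06 for all genes tested. On the normalised scale the treated and untreated WT libraries did not overlap for 27 of the 33, against 58.6% of all genes tested.

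The scaling between libraries bears on every small change in this set. Counts were scaled by TMM (trimmed mean of M values), whose factors lay between 0.832 and 0.843 for WT with oxLDL, between 1.1 and 1.125 for untreated WT, and between 1.029 and 1.038 for KO. With library totals alone, the median change of all genes with oxLDL in WT was -0.46 log2 in place of -0.06, and that of the members -0.31 in place of 0.10. Rises then made up 25.9% of the members called, in place of 46.2%, and 29.6% with quantile normalization. Over all genes called, rises made up 21.1% in place of 46.8%, and 44.1% with quantile normalization. FPKM carry no TMM factor, so a fitted log2 change can differ from the FPKM values printed beside it. All 14 falls and 7 of the 12 rises passed in the same direction under both scalings. The plot of both scalings shows which members cross zero.

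**Figure D1:**
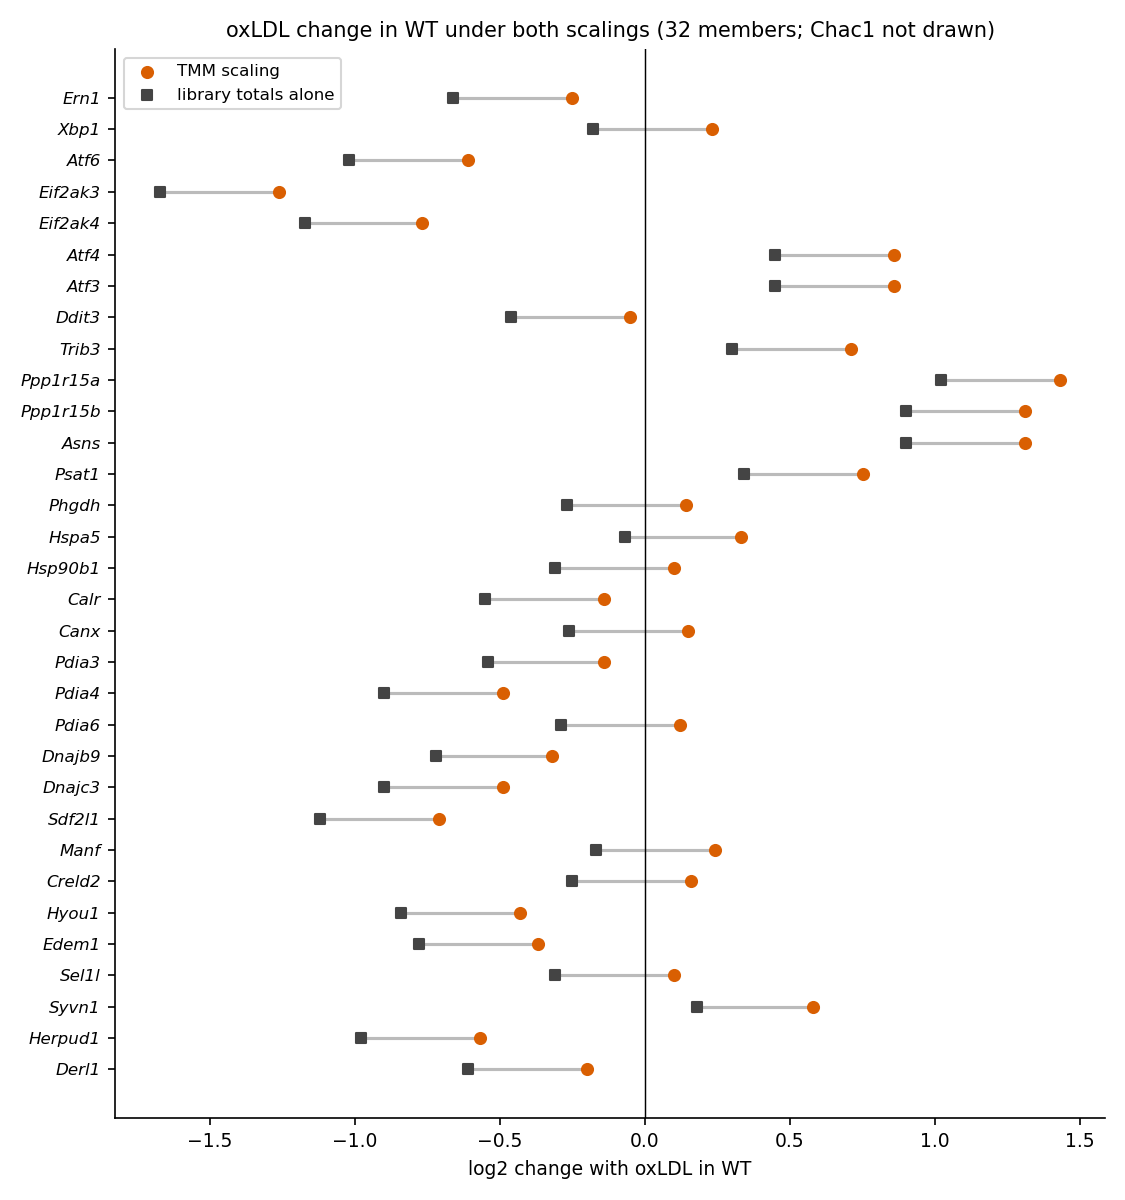
Log2 change with oxLDL in WT (x axis) for 32 of the 33 genes (y axis), with TMM scaling (circles) and with library totals alone (squares); Chac1, at 3.71 and 3.31, is not drawn. The squares lie to the left of the circles throughout, and Xbp1, Hspa5, Canx and Sel1l, which passed as rises with TMM, lie below zero with library totals.

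The kinase genes that start the response fell furthest with oxLDL in WT. Eif2ak3 (PERK; ENSMUSG00000031668, chromosome 6, 70844515 to 70905245 on GRCm38, plus strand) was at 5.54, 5.4 and 5.62 FPKM in the 3 untreated WT libraries and at 1.54, 2.07 and 1.6 FPKM in the 3 with oxLDL. It was at 5.7, 6.23 and 5.98 FPKM in untreated KO and at 5.97, 6.06 and 6.04 FPKM in KO with oxLDL. The WT libraries with oxLDL were thus the lowest of all 12 and overlapped no other group. Its log2 change with oxLDL in WT was -1.26 ± 0.09 (SE; edgeR adjusted p = 2.92e-08). Eif2ak4 (GCN2; ENSMUSG00000005102, chromosome 2, 118388618 to 118475234 on GRCm38, plus strand) was at 4.74, 4.45 and 4.97 FPKM in untreated WT and at 2.11, 1.91 and 2.24 FPKM in WT with oxLDL. In KO it was at 5.89, 5.57 and 5.97 FPKM untreated and at 5.78, 5.93 and 6.2 FPKM with oxLDL. The same group of WT libraries with oxLDL was lowest, without overlap, and the log2 change was -0.77 ± 0.07 (edgeR adjusted p = 3.64e-07).

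The other eIF2α kinases, which belong to a wider list of pathway genes, did not share one direction. Eif2ak2, the interferon-induced kinase PKR that senses double-stranded RNA, rose from 23.9 to 56.9 FPKM with oxLDL in WT (group means, n = 3), by 1.66 ± 0.08 log2 (edgeR adjusted p = 3.02e-10). It was at 7.64 FPKM in untreated KO and 7.68 FPKM in KO with oxLDL. Eif2ak1, the haem-regulated kinase, was named after its values were seen: it fell by 0.18 log2 with oxLDL in WT.

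Among the ER-resident sensors, Atf6 ranged from 15.6 to 16.8 FPKM in untreated WT and from 8.01 to 8.09 FPKM in WT with oxLDL, with 17.8 to 19.7 FPKM over the 6 KO libraries. It fell by 0.61 on the log2 scale (SE 0.04, edgeR adjusted p = 1.18e-08). Ern1 (IRE1α) fell less, by 0.25 ± 0.05 log2, with a mean of 10.6 FPKM untreated and 6.7 FPKM with oxLDL. Xbp1, the transcription factor gene that IRE1α splices, was at 28.7 to 29.5 FPKM untreated and 25.1 to 26.1 FPKM with oxLDL. Its change was 0.23 ± 0.04 log2 on the TMM scale (edgeR adjusted p = 0.000295) and -0.18 with library totals (edgeR adjusted p = 0.00141), so its direction rests on the scaling.

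**Figure D2:**
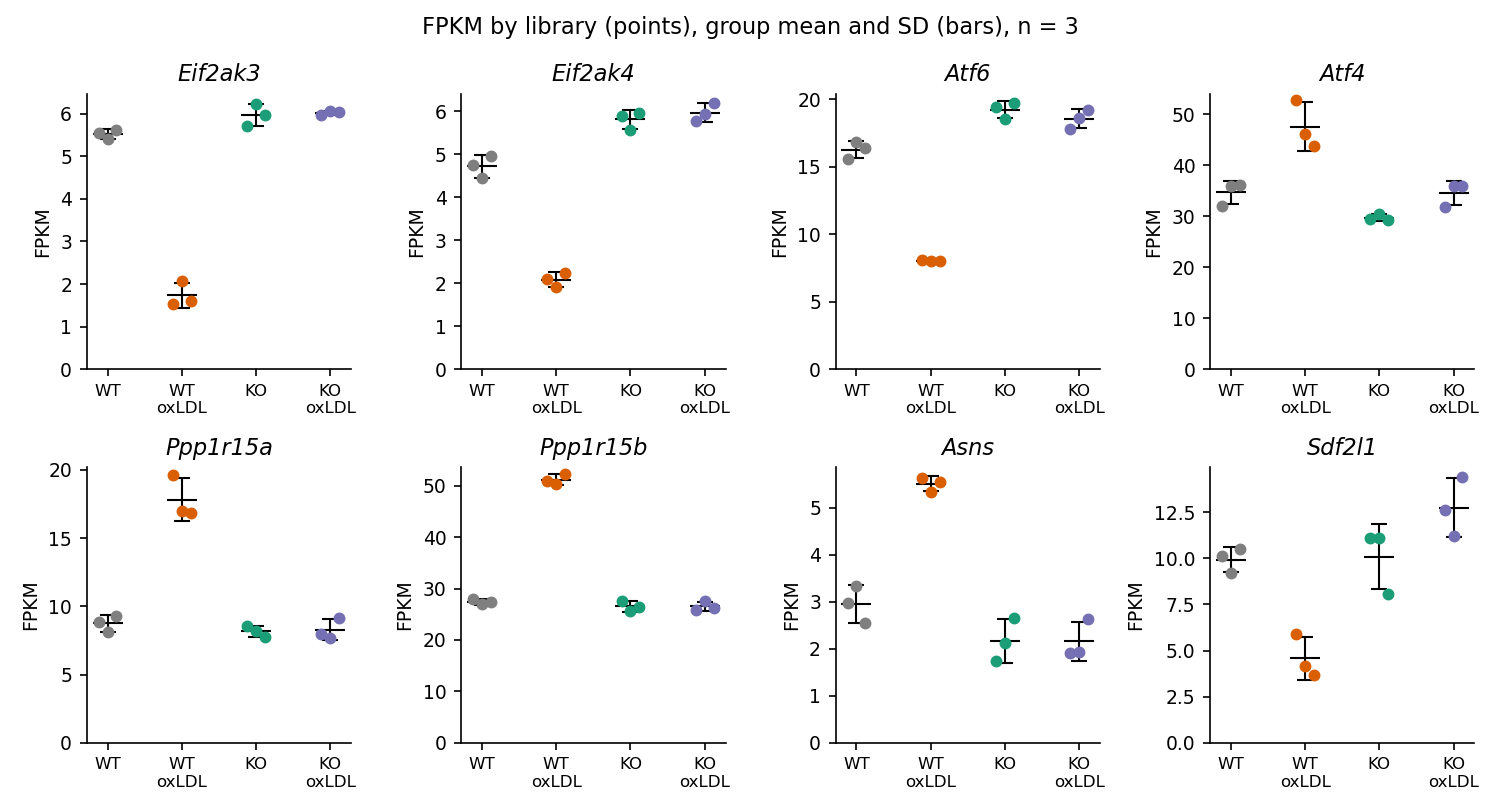
FPKM (y axis) of 8 genes in each of the 12 libraries, by group (x axis), with points for libraries and bars for the group mean and SD (n = 3). Eif2ak3, Eif2ak4, Atf6 and Sdf2l1 are lowest, and Atf4, Ppp1r15a, Ppp1r15b and Asns highest, in the 3 WT libraries with oxLDL.

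Downstream of the kinases, the genes that end eIF2α phosphorylation rose together in WT. Ppp1r15a (GADD34, the inducible phosphatase partner; ENSMUSG00000040435, chromosome 7, 45522916 to 45526268 on GRCm38, minus strand) was at 8.86, 8.09 and 9.29 FPKM in untreated WT and at 19.6, 17 and 16.8 FPKM with oxLDL. In KO it was at 8.53, 8.2 and 7.76 FPKM untreated and at 7.99, 7.7 and 9.17 FPKM with oxLDL. The treated WT libraries were all above the other 9, and the log2 change was 1.43 ± 0.09 (edgeR adjusted p = 3.71e-09). Ppp1r15b (CReP, the constitutive partner; ENSMUSG00000046062, chromosome 1, 133131143 to 133139783 on GRCm38, plus strand) was at 27.9, 26.9 and 27.3 FPKM in untreated WT and at 50.9, 50.3 and 52.3 FPKM with oxLDL. It stayed near the untreated WT level in KO, at 27.6, 25.6 and 26.4 FPKM untreated and 25.8, 27.5 and 26.3 FPKM with oxLDL. Its log2 change in WT was 1.31 ± 0.04 (edgeR adjusted p = 2.71e-12), which was the smallest adjusted p among the 33 genes in that comparison.

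Of the transcription factor genes, Atf4 and Atf3 rose by less than 2-fold and Ddit3 did not pass. Atf4, the central factor of the integrated stress response, was at 32.1 to 36.2 FPKM in untreated WT and 43.8 to 52.9 FPKM with oxLDL, a log2 change of 0.86 ± 0.07 (edgeR adjusted p = 7.34e-08). Atf3, a stress-induced repressor that also acts in inflammation, went from 71.7 to 76.5 FPKM to 98.1 to 103 FPKM (0.86 ± 0.04, edgeR adjusted p = 1.76e-10). Ddit3, which encodes the pro-apoptotic factor CHOP, was at -0.05 ± 0.10 with TMM (edgeR adjusted p = 0.735). With library totals alone Ddit3 was lower, at -0.46 (edgeR adjusted p = 0.0014), and its 9.9 to 10.7 FPKM with oxLDL lay below the 13.7 to 14.3 FPKM without. Ddit3 overlaps Mars1 on the opposite strand, and no source used here says whether counting used strand, so reads of the pair may not be separate. Trib3, a pseudokinase that dampens ATF4 and CHOP activity, was scarce, with 63 to 167 counts per library, and did not pass (0.71 ± 0.33, edgeR adjusted p = 0.0874).

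The ATF4 metabolic targets included the largest fitted rise of the set and one gene that did not pass. Asns, the enzyme that makes asparagine (ENSMUSG00000029752, chromosome 6, 7675169 to 7693254 on GRCm38, minus strand), was at 2.98, 3.34 and 2.54 FPKM in untreated WT and at 5.64, 5.33 and 5.55 FPKM with oxLDL. In KO it was at 1.73, 2.12 and 2.66 FPKM untreated and at 1.91, 1.93 and 2.63 FPKM with oxLDL, so the treated WT libraries stood alone at the top. The log2 change in WT was 1.31 ± 0.16 (edgeR adjusted p = 9.29e-06). Chac1, which degrades glutathione (ENSMUSG00000027313, chromosome 2, 119351229 to 119354381 on GRCm38, plus strand), had 6, 0 and 8 counts in untreated WT and 43, 55 and 27 counts with oxLDL. It had 12, 0 and 0 counts in untreated KO and 12, 32 and 12 in KO with oxLDL. Its log2 change in WT was 3.71 ± 1.22 (edgeR adjusted p = 0.0198), and the size rests on these few counts. Chac1 no longer passed without untreated WT replicate 1 (3.89, edgeR adjusted p = 0.0515), untreated WT replicate 2 (3.19, 0.0589) or WT replicate 2 with oxLDL (3.25, 0.0692). Psat1 and Phgdh make serine: Psat1 rose from 2.71 ± 0.11 to 3.43 ± 0.23 FPKM (SD, n = 3; 0.75 ± 0.08 log2, edgeR adjusted p = 1.8e-06), whereas Phgdh was at 2.09 ± 0.64 and 1.72 ± 0.44 FPKM and did not pass (0.14 ± 0.22, edgeR adjusted p = 0.656).

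Of a wider list of 43 integrated stress response genes 42 were tested, and with oxLDL in WT 14 rose and 12 fell, beside 23.9% and 27.2% of all genes. The median log2 change was 0.07. The wider list thus held falls as well as rises on the TMM scale, whereas none of the 6 stress response factors or 4 ATF4 metabolic targets fell. With library totals 9 of the wider list rose and 20 fell, with a median of -0.34. Over all 17291 genes tested 2222 then rose and 8322 fell, with a median of -0.46. The largest called changes of the wider list were rises of Slc7a11 (3.09 ± 0.06), the cystine transporter, Eif2ak2, given above, and the tryptophanyl-tRNA synthetase gene Wars (1.52 ± 0.07). Slc7a11 went from 6.33 to 40.7 FPKM in WT and was at 3.21 and 3.17 FPKM in KO. A few others of that list were named after their values were seen. Mthfd2, a mitochondrial folate enzyme, rose by 1.47, the transporter genes Slc7a1 and Slc3a2 by 1.36 and 1.05, while the glutamine transporter gene Slc1a5 fell by 1.07 log2 and the mitochondrial enzyme gene Pck2 by 0.86.

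The most abundant ER folding genes moved little on the TMM scale. Calr, Hsp90b1, Hspa5, Pdia3 and Canx had the 5 highest levels per length in untreated WT, from 289 FPKM for Calr to 122 FPKM for Canx, and none of the 5 changed by more than 0.33 log2 in WT on the TMM scale. Of the 13 folding genes 7 fell, 2 rose and 4 did not pass, with a median log2 change of -0.14. With library totals 10 fell and none rose, with a median of -0.54, where 8322 of all 17291 genes tested fell, with a median of -0.46. Hspa5 encodes BiP, the chaperone that holds the sensors inactive. It was at 166, 184 and 168 FPKM in untreated WT and at 169, 159 and 164 FPKM with oxLDL, so the groups overlapped in FPKM. The fitted change was 0.33 ± 0.05 with TMM (edgeR adjusted p = 4.13e-05) and -0.07 with library totals (edgeR adjusted p = 0.217). Canx, the membrane lectin calnexin, was called higher with TMM (0.15) and lower with library totals (-0.26).

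Larger falls were found among the less abundant folding genes. Sdf2l1, a partner of ER chaperone complexes (ENSMUSG00000022769, chromosome 16, 17130138 to 17132383 on GRCm38, minus strand), was at 10.1, 9.2 and 10.5 FPKM in untreated WT and at 5.89, 4.17 and 3.67 FPKM with oxLDL. In KO it was at 11.1, 11.1 and 8.09 FPKM untreated and at 12.6, 11.2 and 14.4 FPKM with oxLDL. The treated WT libraries were again below the other 9, and the log2 change was -0.71 ± 0.17 (edgeR adjusted p = 0.00322). The co-chaperone gene Dnajc3 (p58IPK) and the disulfide isomerase gene Pdia4 both fell by 0.49 log2. Hyou1, a large chaperone, fell by 0.43 and the co-chaperone gene Dnajb9 (ERdj4), a target of spliced XBP1, by 0.32. Calr and Pdia3, a lectin chaperone and its disulfide isomerase partner, both fell by 0.14 with TMM. With library totals they were called lower at -0.55 and -0.54. On the TMM scale Calr did not pass without untreated WT replicate 1 (-0.12) or WT replicate 3 with oxLDL (-0.11). Pdia3 did not pass there without any 1 of 4 WT libraries, namely replicates 1 and 2 of each WT group (-0.14 to -0.11). Hsp90b1 (GRP94), Pdia6, Creld2 and Manf did not pass, at 0.10, 0.12, 0.16 and 0.24, although Hsp90b1 (-0.31) and Pdia6 (-0.29) were called lower with library totals. Manf overlaps 4 other annotated genes, among them Dcaf1 on the opposite strand, and the most counted of the 4 held 27378 counts over all libraries.

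In ER-associated degradation, which returns misfolded proteins to the cytosol for destruction, the branch split. Herpud1, a stress-induced scaffold of the degradation complex, fell from 10.4 ± 0.36 to 5.29 ± 1.2 FPKM (SD, n = 3; -0.57 ± 0.13 log2, edgeR adjusted p = 0.00194). Edem1, which selects misfolded glycoproteins, fell from 44.9 ± 1.4 to 26.2 ± 0.88 FPKM (-0.37 ± 0.04, edgeR adjusted p = 1.48e-06). The channel component gene Derl1 fell by 0.20. Syvn1, the ubiquitin ligase HRD1, rose by 0.58 ± 0.10 (edgeR adjusted p = 0.000145), but was at 0.18 and did not pass with library totals, and it overlaps Mrpl49 on the opposite strand. Its partner gene Sel1l was called higher with TMM (0.10) and lower with library totals (-0.31), and the call with TMM was lost without any 1 of 6 libraries (0.09 to 0.10): untreated WT replicates 2 and 3, WT replicates 1 and 3 with oxLDL, and KO replicates 1 and 2 with oxLDL. In a wider list of 32 degradation genes 13 rose and 6 fell with oxLDL in WT, with a median log2 change of 0.11, but with library totals 2 rose and 16 fell, with a median of -0.30. Over all genes 23.9% rose and 27.2% fell, as given above, and with library totals 2222 of 17291 rose and 8322 fell, with a median of -0.46. Large changes in the degradation list were those of the ubiquitin ligase gene Rnf5 (-0.86 ± 0.13) and of Nploc4 (0.76 ± 0.04), a cofactor of the extracting ATPase. In a wider list of 58 folding and secretion genes 16 rose and 21 fell (median -0.09), and with library totals 3 rose and 46 fell (median -0.50). The largest called changes were those of Erp29 (-1.57 ± 0.09), a folding factor, Creb3l2 (-1.17 ± 0.09), an ER-bound transcription factor, and Bbc3 (-0.95 ± 0.33), a death gene.

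**Figure D3:**
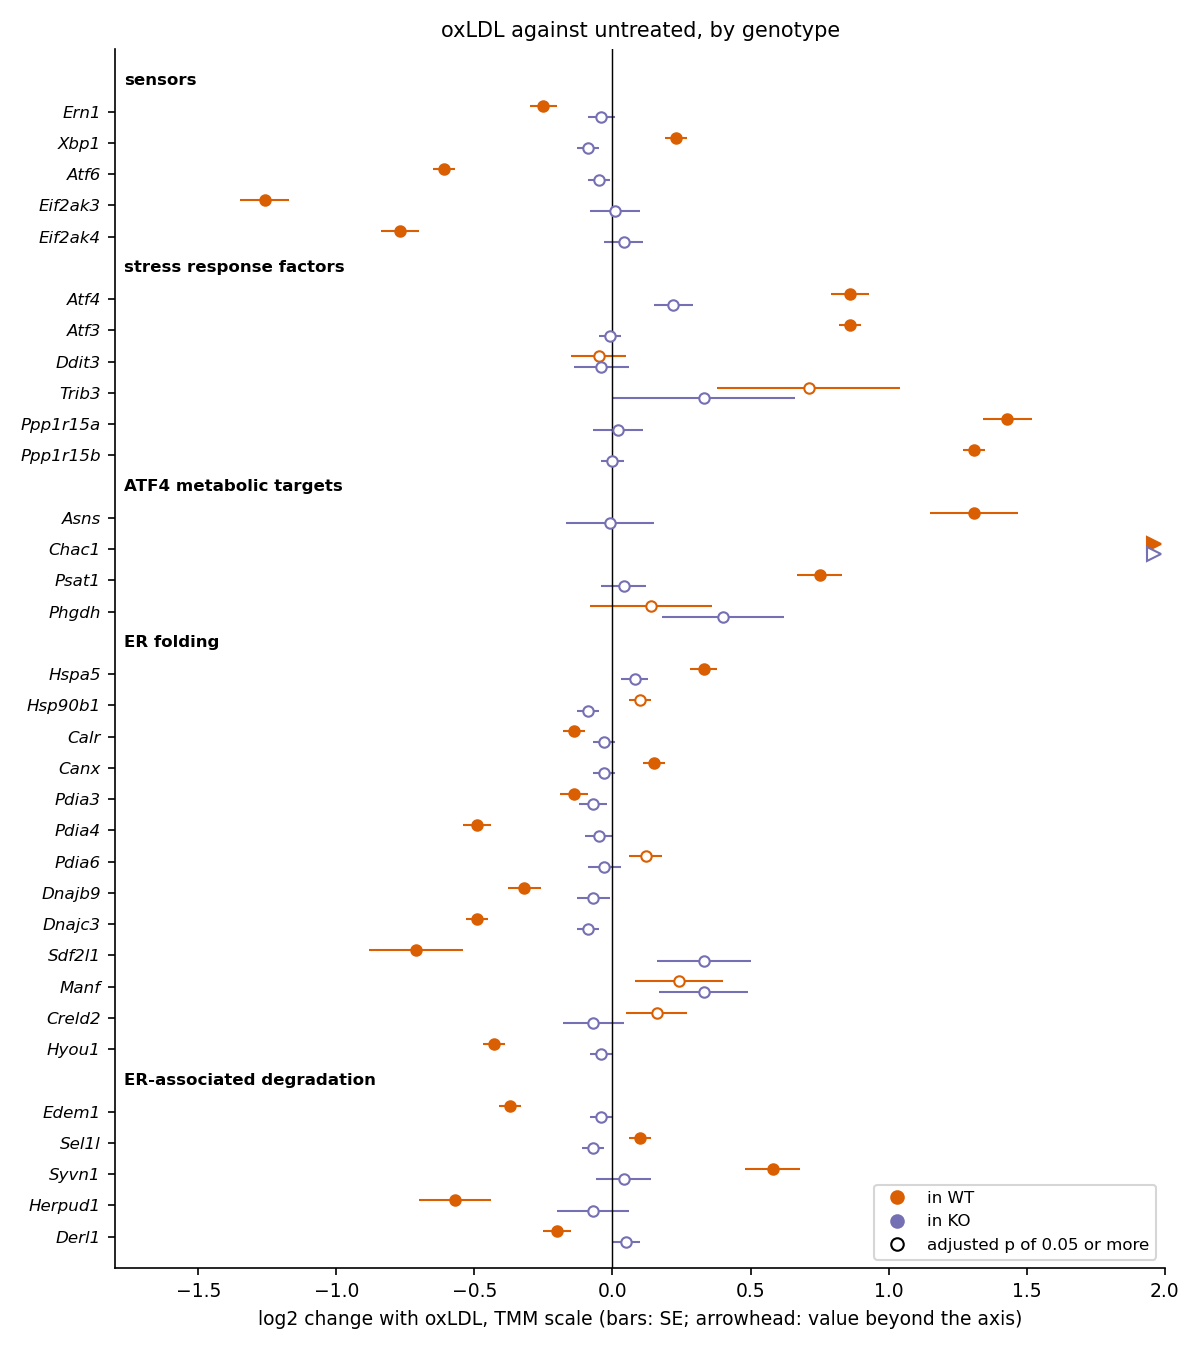
Log2 change with oxLDL on the TMM scale (x axis, bars are SE) for the 33 genes by branch (y axis), in WT and in KO; filled points have an adjusted p under 0.05, open points do not, and arrowheads mark Chac1 at 3.71 in WT and 2.16 in KO, beyond the axis. In WT Eif2ak3, Eif2ak4, Atf6 and Ern1 lie to the left of zero and Atf4, Atf3, Ppp1r15a, Ppp1r15b, Asns and Psat1 to the right, all filled, and no KO point is filled.

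The second comparison was oxLDL against untreated in KO, where none of the 33 genes was called and 0.0116% of all genes tested were. The members' median log2 change was -0.03. By edgeR's test 1 of the 33, Atf4, had an unadjusted p under 0.05 (0.22 ± 0.07, edgeR unadjusted p = 0.00711, adjusted p = 0.423), and DESeq2 and limma on FPKM called 0 as well. Atf4 ranged from 29.3 to 30.5 FPKM in untreated KO and from 31.8 to 36 FPKM in KO with oxLDL, without overlap. The KO groups did not overlap on the normalised scale for 8 of the 33, against 13.4% of all genes tested. The log2 changes of Eif2ak3, Ppp1r15a and Asns, which moved by over 2-fold in WT, were 0.01 ± 0.09, 0.02 ± 0.09 and -0.01 ± 0.16 in KO. Chac1 (2.16 ± 1.20), Phgdh (0.40 ± 0.22), Trib3 (0.33 ± 0.33), Sdf2l1 (0.33 ± 0.17) and Manf (0.33 ± 0.16) had the largest fitted values, and none passed.

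The response to oxLDL was then compared between genotypes by the interaction term, which subtracts the WT change from the KO change. It was called for 24 of the 33, which is 72.7%, against 41.7% of all genes tested, with 12 above zero, against 22.1% of all genes, and 12 below, against 19.6%. At least 2-fold differences were called for 5, against 18.4%. With library totals alone 79.2% of the members called lay above zero in place of 50.0%. Over all genes called the shares were close to these, at 79.6% in place of 53.0%. All 4 of the stress response factor genes that rose in WT had a negative interaction, namely Ppp1r15a (-1.41 ± 0.12, edgeR adjusted p = 3.22e-07), Ppp1r15b (-1.31 ± 0.06), Atf3 (-0.87 ± 0.06) and Atf4 (-0.64 ± 0.10), of which Atf4 did not pass with library totals (-0.23). So did Asns (-1.32 ± 0.23, edgeR adjusted p = 0.000327) and Psat1 (-0.71 ± 0.11), while Chac1 did not pass (-1.55 ± 1.68, edgeR adjusted p = 0.516). Of the sensor genes 4 had positive interactions, with Eif2ak3 at 1.28 ± 0.13 (edgeR adjusted p = 1.48e-06), Eif2ak4 at 0.81 ± 0.10, Atf6 at 0.56 ± 0.06 and Ern1 at 0.22 ± 0.08, and Xbp1 was called negative, at -0.32, but lay at 0.09 and did not pass with library totals. Sdf2l1 had the largest value among folding genes, at 1.04 ± 0.24 (edgeR adjusted p = 0.00285). The interaction shares its libraries with the other comparisons, so these values restate the contrast of the WT and KO changes above.

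The next comparison asked how KO differed from WT before oxLDL. Of the sensor genes 3 of 5 were higher in KO, of the folding genes 7 of 13, with 1 lower, and of the degradation genes 4 of 5. Of the 10 stress response factors and ATF4 targets, Atf3 and Psat1 were higher and the others did not pass on the TMM scale. Of the 33 genes 16 were higher and 1 lower in untreated KO, 51.5% in all, against 31.0% of all genes tested, of which 14.8% were higher and 16.2% lower. The members' median log2 difference was 0.18, beside -0.01 for all genes tested. No member reached 2-fold, against 10.1% of all genes. With library totals alone 9 were higher and 2 lower, with a median of 0.07 beside -0.12 for all genes, and the share of calls that were higher was 81.8% in place of 94.1%. Over all genes called that share was 31.5% in place of 47.8%.

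Atf3 showed the largest difference, at 71.7 to 76.5 FPKM in untreated WT and 119 to 123 FPKM in untreated KO (0.82 ± 0.04 log2, edgeR adjusted p = 5.72e-10). It was thus as high in untreated KO as in KO with oxLDL, at 118 to 121 FPKM, and above WT with oxLDL in FPKM. Psat1 was higher by 0.62 ± 0.08. Edem1 was at 60.3 to 62.9 FPKM in untreated KO against 43.9 to 46.5 FPKM in untreated WT (0.56 ± 0.04, edgeR adjusted p = 2.95e-08). Xbp1 was at 37.1 to 39.4 FPKM against 28.7 to 29.5 FPKM (0.50 ± 0.04, edgeR adjusted p = 2.13e-07), and was also higher with library totals (0.39). Among the genes of the sensors themselves Eif2ak4 (0.40) and Atf6 (0.35) were higher, while Eif2ak3 (0.22) and Ern1 (0.12) did not pass.

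Of 13 folding genes 7 were higher in untreated KO, from Dnajb9 (0.39) and Dnajc3 (0.28) to Canx (0.14), and Pdia4 was lower (-0.14). With library totals 2 folding genes were higher and 1 lower. Pdia4 lost its call without any 1 of 7 libraries, namely untreated WT replicates 1 and 3, all 3 untreated KO replicates and KO replicates 1 and 2 with oxLDL (-0.15 to -0.11), and Canx without untreated WT replicate 3 (0.12). Pdia6 (0.18) lost its call without untreated WT replicate 2 or 3 or untreated KO replicate 1 or 2 (0.13 to 0.17). Hspa5 did not pass, at 0.11 with TMM and 0 with library totals. Of the 5 degradation genes 4 were higher, namely Edem1, Sel1l (0.31), Syvn1 (0.29) and Derl1 (0.15); with library totals 2 were, Edem1 (0.45) and Sel1l (0.20). Syvn1 and Derl1 were not called without some single libraries: for Syvn1 untreated WT replicates 2 and 3 and all 3 untreated KO replicates (0.24 to 0.32), and for Derl1 the 3 untreated WT replicates and untreated KO replicate 2 (0.12 to 0.15). Atf4 (-0.12), Ddit3 (0.05), Trib3 (-0.21), Ppp1r15a (0.01), Ppp1r15b (0.06), Asns (-0.34), Phgdh (0.21) and Chac1 (-0.16) did not pass. With library totals Atf4 was called lower in untreated KO (-0.23, edgeR adjusted p = 0.0246). Its 29.3 to 30.5 FPKM there lay below the 32.1 to 36.2 FPKM of untreated WT.

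The wider lists were also compared between untreated KO and WT, where 14.8% of all genes were higher and 16.2% lower. With library totals 1766 of all 17291 genes tested were higher and 3849 lower, with a median of -0.12. Of 58 folding and secretion genes 18 were higher and 3 lower (median 0.07), but with library totals 10 were higher and 11 lower (median -0.04). The largest called difference was that of Wfs1 (2.15 ± 0.08), a membrane protein of the ER that restrains ATF6, which went from 11.6 to 47.9 FPKM. Sec61b, a subunit of the translocation channel, was at -0.86 ± 0.22 and the oxidase gene Ero1lb at 0.81 ± 0.06. Of 42 integrated stress response genes 4 were higher and 11 lower, and with library totals 2 and 17. The largest called differences were those of Cebpb (-1.83 ± 0.29), a partner of ATF4, Nupr1 (-1.69 ± 0.12), a stress-induced chromatin protein, and Eif2ak2 (-1.54 ± 0.08). Cebpb was scarce, at a mean of 0.813 FPKM in untreated WT and 0.209 in untreated KO. Of 32 degradation genes 10 were higher and 2 lower, but with library totals 5 were higher and 6 lower. The largest called differences were those of Edem2 (0.64 ± 0.05), Marchf6 (0.63 ± 0.04) and Ube2j2 (-0.35 ± 0.10), a mannosidase-like protein, a ubiquitin ligase and a conjugating enzyme.

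With oxLDL in both genotypes, all 5 sensor genes were higher in KO, while 3 of the 6 stress response factor genes and 1 of the 4 ATF4 metabolic targets were lower and the others of these branches did not pass. With library totals 2 of the 6 and 2 of the 4 were called higher, and again 3 and 1 lower. Of the 33 genes 15 were higher and 6 lower, 63.6% in all, against 57.9% of all genes tested, of which 30.6% were higher and 27.4% lower. At least 2-fold differences were called for 6, against 28.5% of all genes. With library totals alone 24 were higher, and 85.7% of calls were higher in place of 71.4%. Over all 17291 genes tested 7538 were then higher, and 69.5% of calls were higher in place of 52.8%. Among the sensor genes Eif2ak3 was at 1.5 ± 0.09 (edgeR adjusted p = 2.88e-09), Eif2ak4 at 1.21 ± 0.07, Atf6 at 0.90 ± 0.04, Ern1 at 0.34 and Xbp1 at 0.19. Sdf2l1 (1.17 ± 0.17), Edem1 (0.89 ± 0.04), Herpud1 (0.84 ± 0.13), Dnajc3 (0.68), Dnajb9 (0.63) and Hyou1 (0.58) were higher as well. Asns was lower by 1.65 ± 0.17 log2 units (log2 difference -1.65, edgeR adjusted p = 6.43e-07), as were Ppp1r15a (-1.40 ± 0.09), Ppp1r15b (-1.25 ± 0.04) and Atf4 (-0.76 ± 0.07). Atf3 and Psat1, which were higher in untreated KO and rose with oxLDL in WT, did not pass between the treated groups, at -0.05 and -0.09, but were higher in KO with library totals, at 0.26 and 0.21. The remaining lower calls, Hspa5 (-0.15) and Syvn1 (-0.25), turned positive with library totals (0.16 and 0.05). Hspa5 also lost its call without KO replicate 3 with oxLDL (-0.10), and Syvn1 lost it without any 1 of 5 libraries, namely untreated WT replicate 3, WT replicate 1 with oxLDL, untreated KO replicate 3 and KO replicates 1 and 2 with oxLDL (-0.25 to -0.17).

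**Figure D4:**
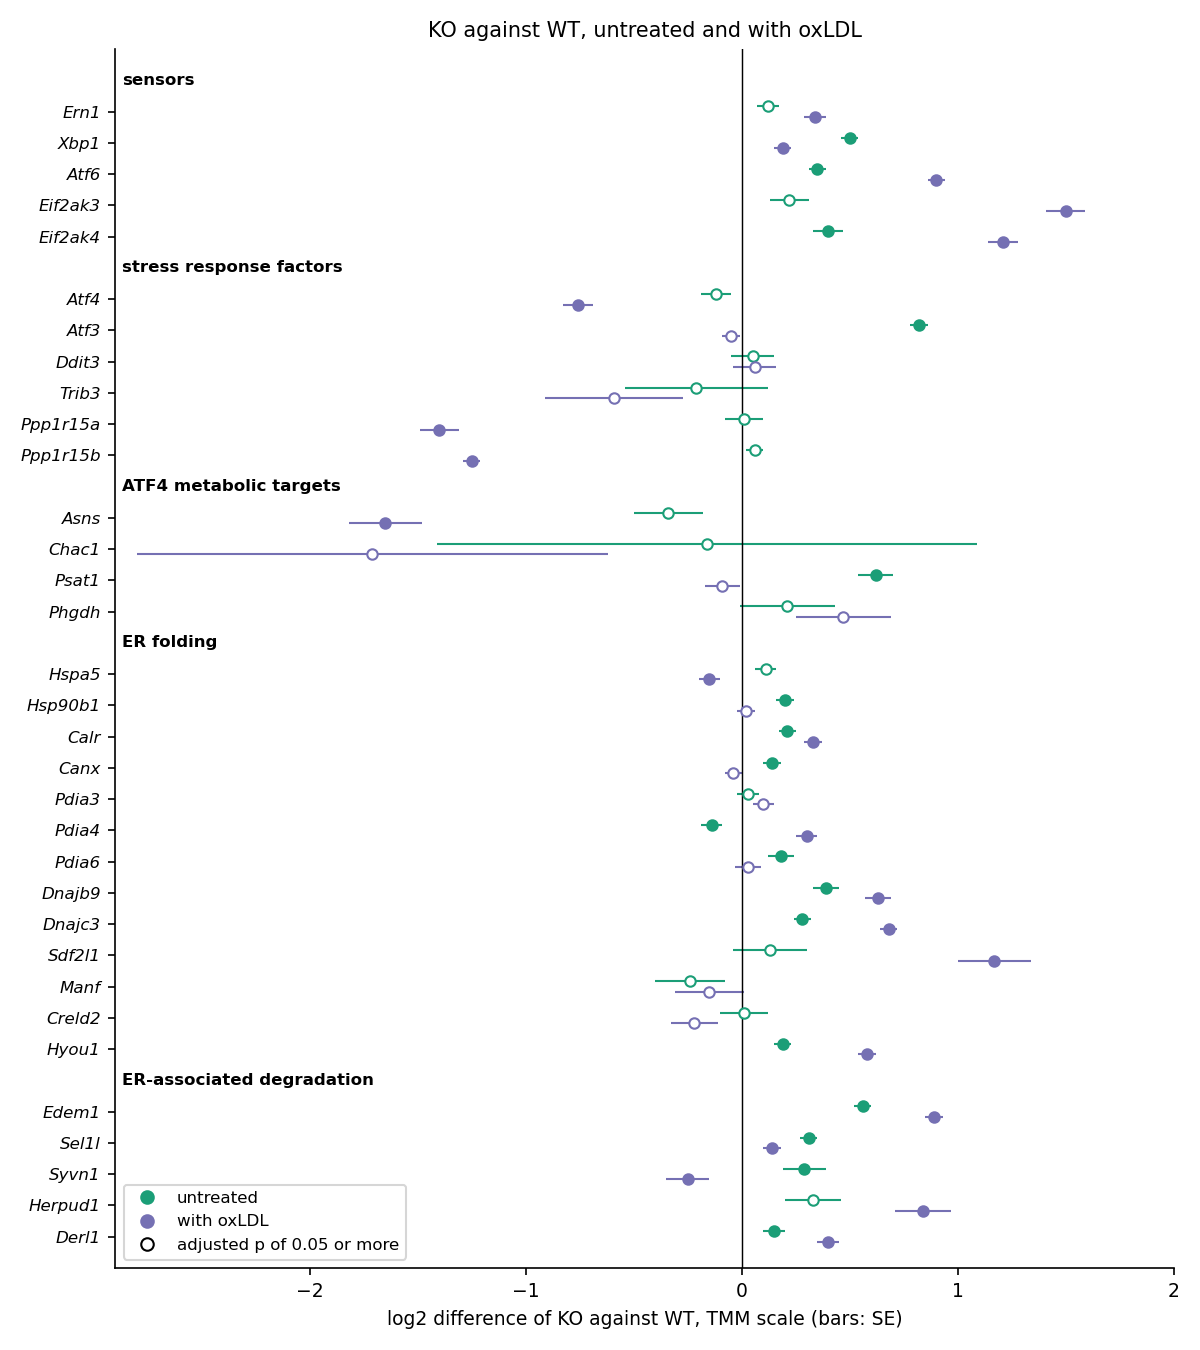
Log2 difference of KO against WT on the TMM scale (x axis, bars are SE) for the 33 genes by branch (y axis), untreated and with oxLDL; filled points have an adjusted p under 0.05 and open points do not. Untreated differences stay within 2-fold, and with oxLDL the sensor genes lie to the right while Ppp1r15a, Ppp1r15b, Atf4 and Asns lie to the left.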

How the data were processed

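The deposited table held raw read counts and FPKM for 27294 genes in 12 libraries, per the file headers; the FPKM were made by the authors. Poly(A) RNA was sequenced in pairs on an Illumina NovaSeq, per the labels' protocols, which also speak of adipose RNA where the source label says macrophages. HISAT2 2.0, Bowtie 0.12.2 and build mm8 are named in the submitters' processing notes; for the counter, the annotation and strand use, nothing is given in the sources used here. Positions are given as GRCm38, because 99.93% of 21990 genes matched by Entrez identifier, and all 33 members, overlapped their GRCm38.p6 position.

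The deposited counts were tested with edgeR 4.0.16 in R 4.3.3 (quasi-likelihood test, TMM, filterByExpr, 17291 genes), with the 4 groups in 1 fit, no block, and Benjamini-Hochberg adjustment over all genes, called at 0.05. The test was checked on simulated data in which few genes changed, in both directions. That check cannot show how the scaling behaves when many genes change, as here. Standard errors were taken as the log2 change divided by the square root of the F statistic. Alternatives used limma 3.58.1 and DESeq2 1.42.0.

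No pair of libraries held identical values or counts within sampling noise (chi-square per degree of freedom 12.1 to 35.9 within groups). The members and lists were chosen with earlier results of these data known. Each library is given for members called at 2-fold or more in a contrast, and other members by ranges, means or fitted values; Hspa5 was added to the first set after its values were seen. Of each wider list, the 3 called genes with the largest change with oxLDL in WT and the 3 in the untreated genotype comparison are named, except 1 gene that is not reported here, and further names are marked. A planned search of promoters was not done, and sequences were not used here.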

Additional observations from a re-analysis of the deposited data

Results flagged for a closer look

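For 24 of the 33 genes the oxLDL change differed between genotypes by the interaction term of edgeR's quasi-likelihood test. The values are the log2 change in KO minus that in WT. Positive values were found for Ern1 (0.22), Atf6 (0.56), Eif2ak3 (1.28), Eif2ak4 (0.81), Pdia4 (0.44), Dnajb9 (0.24), Dnajc3 (0.40), Sdf2l1 (1.04), Hyou1 (0.39), Edem1 (0.33), Herpud1 (0.50) and Derl1 (0.25). Negative values were found for Xbp1 (-0.32), Atf4 (-0.64), Atf3 (-0.87), Ppp1r15a (-1.41), Ppp1r15b (-1.31), Asns (-1.32), Psat1 (-0.71), Hspa5 (-0.25), Hsp90b1 (-0.19), Canx (-0.18), Sel1l (-0.17) and Syvn1 (-0.54). The calls of Ern1, Dnajb9, Herpud1, Hsp90b1 and Sel1l were lost without any 1 of 7, 9, 8, 5 and 1 of the 12 libraries, at 0.17 to 0.22, 0.20 to 0.25, 0.33 to 0.52, -0.18 to -0.14 and -0.14. For Sel1l that library was untreated KO replicate 1. With library totals Syvn1 was at -0.13 and Atf4 at -0.23, and neither passed (edgeR adjusted p = 0.474 and 0.0705). Hsp90b1 (0.23), Canx (0.23) and Sel1l (0.24) were then called above zero (edgeR adjusted p = 0.0056, 0.00281 and 0.000768). Xbp1 (0.09) and Hspa5 (0.16) also lay above zero there but did not pass.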

How the results depend on the processing

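Of 88 member changes called over the comparisons, 77 kept their direction in every alternative tried and 60 kept both direction and call. The other 11, small changes of Xbp1, Hspa5, Hsp90b1, Canx, Sel1l and Syvn1, turned under library totals and under limma on FPKM, and 9 of them with quantile normalization too; these alternatives change the scaling between libraries. For oxLDL in WT the reversed values with library totals, limma on log2(FPKM + 1), log2(FPKM + 0.1) and log2(FPKM + 1) without a filter were -0.18, -0.17, -0.18 and -0.17 for Xbp1, -0.07 in all 4 for Hspa5, -0.26 in all 4 for Canx and -0.31, -0.30, -0.31 and -0.30 for Sel1l; with quantile normalization they were -0.05, -0.41, -0.56 and -0.39. For the interaction they were 0.09 in all 4 for Xbp1, 0.16 and 0.15 for Hspa5, 0.23 and 0.22 for Hsp90b1 and Canx, and 0.24, 0.23, 0.24 and 0.23 for Sel1l; with quantile normalization Hspa5, Hsp90b1, Canx and Sel1l were at 0.48, 0.58, 0.53 and 0.33. For KO against WT with oxLDL, Hspa5 was at 0.16, 0.15 and, with quantile normalization, 0.49, and Syvn1 at 0.05 in all 4.

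The members called higher in untreated KO went from 16 to 9 with library totals and all 3 limma fits on FPKM, and the 1 called lower, Pdia4, to 2 with library totals, 3 with limma at either pseudocount, and 0 with upper quartile scaling, quantile normalization, DESeq2, no filter on low counts or the replicate block. With oxLDL in WT the 12 rises became 7 with library totals and 6, 6 and 7 with the limma fits. For KO against WT with oxLDL the 15 higher became 24 in each of these 4. In the interaction the 12 higher became 19 with library totals and limma at either pseudocount, and the 12 lower became 5 in these 4 and 7 with quantile normalization. Leaving out 1 library gave 10 to 12 rises and 12 to 14 falls with oxLDL in WT, 0 calls in KO, 12 to 17 higher and 0 to 1 lower in untreated KO, 15 to 16 higher and 5 to 7 lower with oxLDL, and 9 to 12 above and 10 to 12 below zero for the interaction. What the replicate numbers mark is not given in the labels. Deviations of same-numbered libraries correlated at -0.0449 to 0.031, and those of other pairs at -0.0465 to 0.0632. With so few libraries a group, these values cannot show whether same-numbered libraries share a run or preparation. Replicate 2 had the lowest summed counts in both WT groups (54574550 untreated, 53588814 with oxLDL), but not in the KO groups. The replicate block changed no other count by over 1.5 times: it gave 16 higher in untreated KO and 12 rises and 14 falls with oxLDL in WT. Depth limits Chac1, with 0 to 55 counts per library, and Trib3.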
